A study of Mus musculus with 6 samples.

Results

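Cytosolic ribosomal proteins are the protein subunits of the ribosomes that translate nuclear-encoded mRNA, and their transcripts are among the most abundant of a liver cell. They were taken here as every probe set, the group of short probes that reads 1 transcript on the array, whose annotation held exactly 1 gene symbol and whose symbol began with Rpl or Rps and a digit or was Rplp0, Rplp1, Rplp2 or Rpsa. Symbols of the Rps6k kinases and of named pseudogenes were left out. The rule took 106 of the 45101 probe sets, which stood for 50 of the 18194 genes with a single-symbol probe set, namely 26 genes of the large subunit with 48 probe sets and 24 named for the small subunit with 58. Of these 50 genes Rps19bp1 shares only the name, since it encodes a nucleolar protein that binds the ribosomal protein S19. A further 110 probe sets listed a ribosomal protein together with a pseudogene or another gene and were set aside by the rule. No filter on level was applied, so all 106 probe sets were tested.

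Liver RNA was hybridized to 1 Affymetrix mouse array per animal. The 3 mutants were B6.Alb/cre,Pdss2loxP/loxP males, in which cre made from the albumin promoter, active in hepatocytes, removes a loxP-flanked part of Pdss2, and were 176, 178 and 224 days old (mutants 1, 2 and 3). The 3 controls were B6.Pdss2loxP/loxP males of 209, 213 and 140 days (controls 1, 2 and 3), which carry the same loxP sites without cre although their titles call them wild type. Both genotypes share the B6 background, they were caged apart, and control 1 was labelled as the concurrent control of mutant 3. The comparison was meant to show which pathways change downstream of the lack of Pdss2, the gene for a subunit of the synthase that makes the coenzyme Q side chain.

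Ribosomal proteins are made in matched amounts and assembled onto ribosomal RNA in the nucleolus, so the genes for them are expressed together at high levels in nearly all cells. Their mRNAs begin with a run of pyrimidines, the 5′ terminal oligopyrimidine (TOP) tract, through which their translation follows the activity of the kinase mTOR and the RNA-binding protein LARP1. In humans, loss of 1 copy of one of several of these genes causes Diamond-Blackfan anemia, and free ribosomal proteins of the 5S particle stabilize p53.

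Pyrimidine runs at the start, which the rule did not use, were more frequent among the members than among all genes, although most members had none of 8 bases. RefSeq start windows (build GRCm38.p6) were found for 44 of the 50 genes, in 52 windows. The windows below run from 10 bases before the annotated start to 20 bases from it onward, on the strand of the gene. They belong to genes described in the results, and capitals mark the longest run of C and T that touches the 10 bases on either side of the start.
Rpl27a, chr7:109519185-109519214, plus strand: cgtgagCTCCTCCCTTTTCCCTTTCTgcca
Rpl35, chr2:39005112-39005141, minus strand: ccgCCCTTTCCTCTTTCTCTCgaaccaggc
Rps9, chr7:3704031-3704060, plus strand: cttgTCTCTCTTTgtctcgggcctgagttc
Rps26, chr10:128626487-128626516, minus strand: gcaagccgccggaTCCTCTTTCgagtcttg
Rplp2, chr7:141447641-141447670, plus strand: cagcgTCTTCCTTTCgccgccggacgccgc
Rps6, chr4:86857348-86857377, minus strand: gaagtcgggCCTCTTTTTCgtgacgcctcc
Rpl13a, chr7:45128726-45128755, minus strand: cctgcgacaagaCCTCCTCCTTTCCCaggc
Rpl38, chr11:114668570-114668599, plus strand: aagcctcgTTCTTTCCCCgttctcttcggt
Rpsa, chr9:120127756-120127785, plus strand: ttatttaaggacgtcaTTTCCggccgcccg
Rplp0, chr5:115559457-115559486, plus strand: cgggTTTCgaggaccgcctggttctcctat
Rpl11, chr4:136053374-136053403, minus strand: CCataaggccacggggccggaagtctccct
A run of at least 8 bases stood at the start in 17 of the 52 windows (32.7%), against 3353 of all 32851 RefSeq windows (10.2%), and 35 member windows had a shorter run. Rpsa, Rplp0 and Rpl11 are shown for their shorter runs, of 5, 4 and 2 bases, and the others for their long ones. Annotated starts can lie some bases away from the true ones, so a window without a run says only that these letters were not found there. The motif TTCCGG, searched on both strands, was found in the 300 bases around 28 of the 52 starts (53.8%) and around 4894 of all starts (14.9%). It is the core recognised by ETS transcription factors, and the match is a description of the letters only. Windows with long runs belonged both to genes whose brightest probe set had a negative difference between mutants and controls (Rpl27a, Rps9) and to genes with a positive one (Rpl13a, Rpl38).

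Pdss2 itself was read by 3 probe sets. On the brightest, the log2 value was 6.94, 6.88 and 7.05 in mutants 1, 2 and 3, against 7.46, 7.47 and 7.56 in controls 1, 2 and 3 (difference -0.54, standard error 0.18, adjusted p = 0.118 in limma), so that the groups did not overlap. On the other 2 probe sets the groups overlapped, with differences of 0.35 and 0.40. No source used here places the probes relative to the deleted part, so they do not check the labels. Hepatocyte markers were present, with Alb between 13.40 and 14.20 on all arrays. As the RNA is from whole liver, fewer cells of a type and less RNA per cell cannot be told apart.

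No ribosomal protein probe set passed the test between mutants and controls. In limma, with p adjusted by the Benjamini-Hochberg method over all 45101 probe sets, 0 of the 106 members were higher and 0 were lower at an adjusted p under 0.05, whereas 601 of all probe sets were higher and 361 lower (1.33% and 0.800%, together 2.13%). At an unadjusted p under 0.05, 7 members were higher and 10 lower, against 15.7% and 9.53% of all probe sets. The groups did not overlap on 18 members that were higher in mutants and on 13 that were lower, against 21.2% and 10.7% of all probe sets, so the share was close to the background in both directions. The median difference of the members, mutant minus control, was -0.13 on the log2 scale, beside 0.17 for all probe sets. Relative to the median of all probe sets it was -0.30, and it was -0.24 after quantile normalization, which moved the median of all probe sets to 0.04. Single differences ran between -2.06 (Rps27l) and 1.20 (Rpl41), with 43 members above 0 and 63 below it. In the plot of differences by level, the lowest points lie in the middle of the range and the brightest lie near 0.

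**Figure D1:**
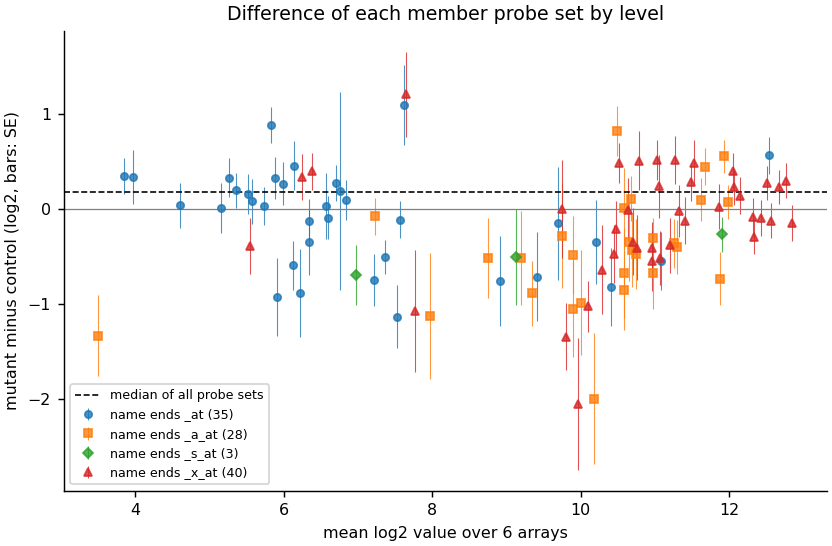
Difference between mutants and controls (log2, vertical axis, bars show the standard error of limma) against the mean log2 value over the 6 arrays (horizontal axis) for the 106 ribosomal protein probe sets. Marker shapes give the ending of the probe set name, the dashed line is the median of all probe sets (0.17), and the points reach down to -2.06 and up to 1.20.

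With 1 probe set per gene, the one of highest mean, 1 of the 50 member genes was called, against 9.03% of the 18194 genes tested. This was Rps9, a protein at the mRNA entry of the small subunit, which was lower in mutants by a margin just inside the threshold (difference -1.03, standard error 0.26, adjusted p = 0.04998 in limma). Its log2 value was 10.13, 9.44 and 9.19 in mutants 1, 2 and 3, against 10.59, 10.55 and 10.70 in the controls, without overlap. With every probe set of a gene averaged instead, the difference of Rps9 was -0.54 (adjusted p = 0.185 in limma) and no member gene was called. Of the 50 genes by their brightest probe set, 20 were above 0 and 30 below it, with a median of -0.14, beside 0.17 for all genes.

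The members differed mostly among the mutants. Relative to the mean of the 3 controls, the median member stood at 0.20 in mutant 1, -0.06 in mutant 2 and -0.49 in mutant 3, and within 0.01 of 0 in each control. The same medians over all probe sets were 0.09, 0.25 and 0.16 in mutants 1, 2 and 3, and -0.07, 0.02 and 0.05 in the controls. The median SD of a member was thus 0.46 over mutants and 0.14 over controls, beside 0.31 and 0.26 for all probe sets (n = 3 each). The SD was larger over mutants for 83 of the 106 members (78.3%), beside 59.4% of all probe sets. Mutant 1 was highest, mutant 2 between and mutant 3 lowest on 67 members (63.2%), an order that 12.2% of all probe sets showed. On 43 members (40.6%) mutant 1 exceeded mutant 3 by over 1 on the log2 scale, as it did on 4.50% of all probe sets. These shares of all probe sets were larger at the middle and high levels of most members, where the order was on 21.5% to 38.0%. Mutant 1 was above every control on 58 members (54.7%, beside 35.5% of all probe sets), and mutants 2 and 3 were both below every control on 46 (43.4%, beside 16.0%). On 21 members both were true, which is 19.8% of the members, beside 1.60% of all probe sets. The order of the mutants was noticed in these values and is given as a description, with no test. Mutants 1 and 2 were of nearly the same age (176 and 178 days), and the part of age in this order was not tested. Against control 1, its concurrent control, mutant 3 was lower on 74 members, with a median of -0.49, where the median of all probe sets was 0.25.

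**Figure D2:**
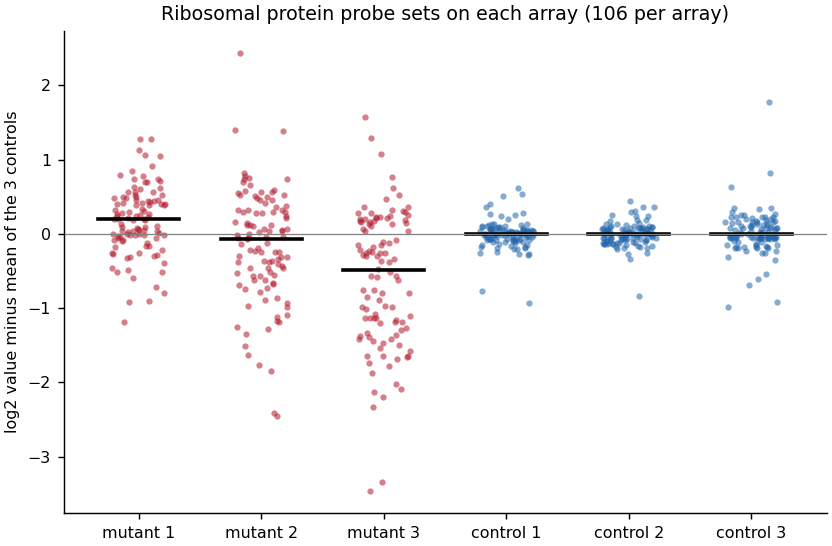
Log2 value minus the mean of the 3 controls (vertical axis) of each of the 106 ribosomal protein probe sets on each array, mutants in red and controls in blue, with the median as a black bar. The median bars stand at 0.20, -0.06 and -0.49 in mutants 1, 2 and 3 and next to 0 in the controls, and the points spread more widely over mutants.

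The order was carried by members of middle to high level. The 27 dimmest probe sets, with means between 3.51 and 6.84, had medians of -0.02, 0.28 and 0.16 in mutants 1, 2 and 3, much as all probe sets in that range (0.12, 0.32 and 0.20). Among the next 26, with means up to 10.18, the medians were 0.37, -0.95 and -1.43, beside -0.05, -0.07 and -0.04 for all probe sets in the range. Among the following 26, with means up to 11.08, they were 0.26, -0.25 and -1.13, beside 0.03, -0.07 and -0.26. The brightest 27 members, with means up to 12.84, came closer together, at 0.19, 0.11 and -0.23, beside 0.02, 0.01 and -0.04. Across these 52 members of middle level, 44 had mutant 1 highest and mutant 3 lowest with mutant 2 between. From the dimmest to the brightest of these groups, the order was on 22.2%, 80.8%, 88.5% and 63.0% of members. Of all probe sets in the same ranges, 8.09%, 21.5%, 38.0% and 33.9% had it. The share of 12.2% over all levels is thus a low background for members of middle to high level. No detection or saturation calls came with the values, so the part of background and saturation at either end of the range was not tested.

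**Figure D3:**
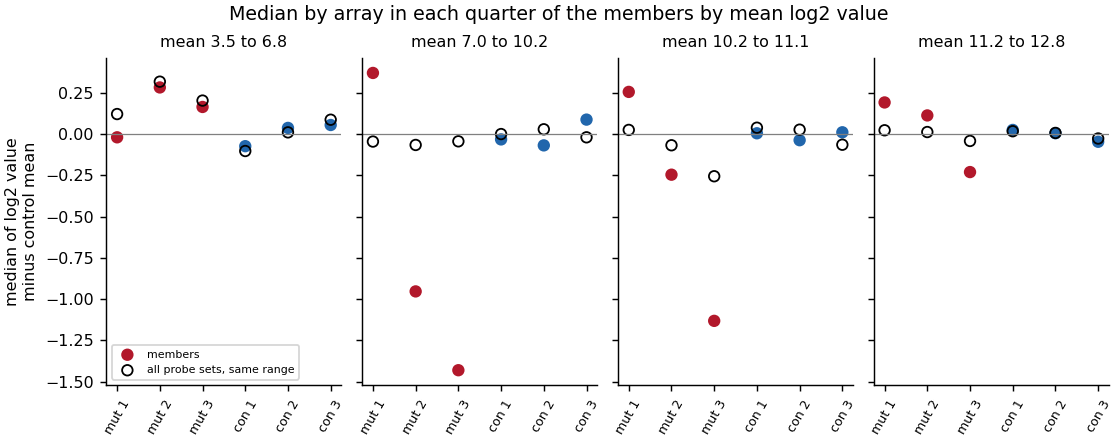
Median over probe sets of the log2 value minus the control mean (vertical axis) on each array, in 4 panels that divide the members by mean log2 value. Filled points are the ribosomal protein probe sets, red for mutants and blue for controls, and open circles are all probe sets in the same range, and the filled points of mutants 2 and 3 lie lowest in the second panel (-0.95 and -1.43).

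Names of Affymetrix probe sets tell how specific their probes are, and those ending _x_at, _s_at or _a_at may also read other transcripts, related genes or several variants of a gene. Ribosomal protein genes have many near-identical processed pseudogenes, and 71 of the 106 members were of these kinds. The 28 ending _a_at had a median difference of -0.46 (all such probe sets, 0.12), the 40 ending _x_at one of -0.06 (0.05), the 3 ending _s_at one of -0.51 (0.06) and the 35 ending _at one of 0.02 (0.19). The order of the mutants was found on 22 of the 28 members ending _a_at (78.6%) and 29 of the 40 ending _x_at (72.5%). It was found on 14 of the 35 ending _at (40.0%). Of all probe sets with these endings, 20.5%, 22.7% and 10.2% had it. Members ending _at had medians of -0.004, 0.07 and -0.11 in mutants 1, 2 and 3. Those ending _a_at had 0.26, -0.49 and -1.28, and those ending _x_at 0.21, 0.04 and -0.35. The part of other transcripts in the order was not tested. The 110 probe sets set aside, which name a ribosomal protein with other genes, gave 0 called in either direction, 3 higher and 8 lower at an unadjusted p under 0.05, and medians of 0.16, -0.16 and -0.61 in mutants 1, 2 and 3.

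Probe sets of 1 gene often disagreed. Of the 24 genes with over 1 probe set, 13 had differences of both signs and 7 had differences more than 1 apart on the log2 scale. The widest gap was that of Rps27l, a paralog of Rps27 that p53 induces in human cells. On 1 of its probe sets the log2 value was 10.97, 8.73 and 7.85 in mutants 1, 2 and 3, against 11.10, 11.28 and 11.17 in controls (difference -2.00, standard error 0.69, adjusted p = 0.128 in limma). A second gave 10.70, 8.58 and 7.53 in mutants, against 10.92, 11.10 and 10.97 in controls (difference -2.06, standard error 0.69, adjusted p = 0.122). On both, mutants 2 and 3 were far below every control and mutant 1 only just below them. The remaining one gave 11.20, 10.80 and 9.89 in mutants, against 10.56, 10.78 and 10.58 in controls, overlapping, with a difference of -0.01 that turned to 0.02 with age as a covariate. Rps27, its paralog with a place at the small subunit's platform, had only a dim probe set among the members. It was at 5.65, 5.98 and 5.65 in mutants and 5.72, 5.57 and 5.90 in controls (difference 0.03). The difference became -0.15 after quantile normalization and -0.13 after centring each array on its median. A bright probe set that names Rps27rt as well was set aside by the rule (mean 12.04). There the groups overlapped (difference 0.29, adjusted p = 0.472 in limma).

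**Figure D4:**
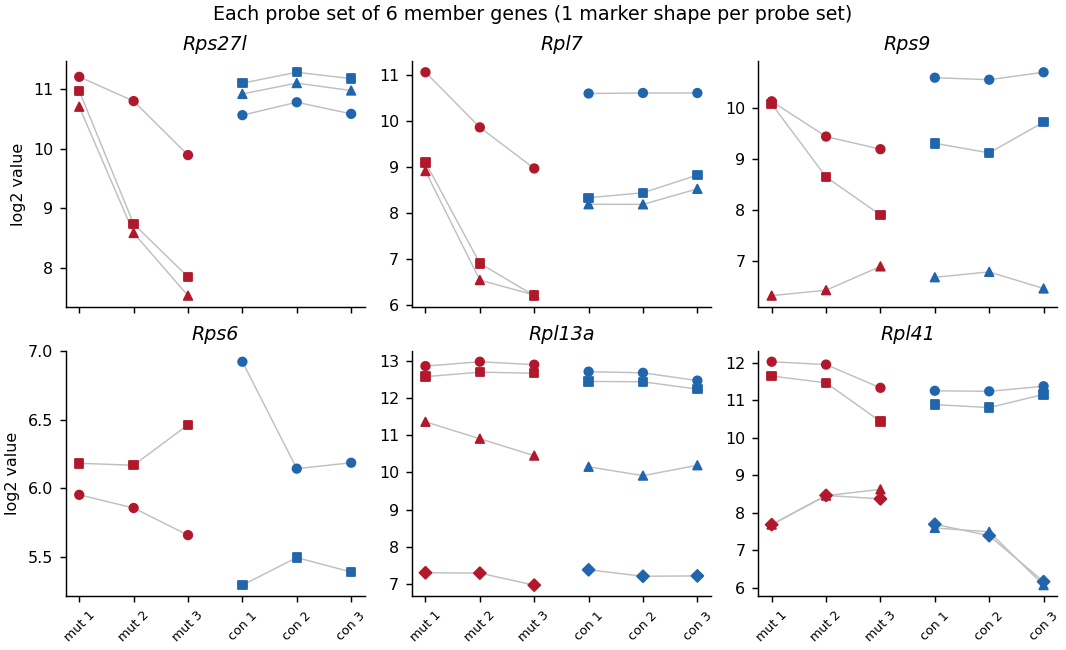
Log2 value (vertical axis) of each probe set of Rps27l, Rpl7, Rps9, Rps6, Rpl13a and Rpl41 on mutants 1 to 3 (red) and controls 1 to 3 (blue), with 1 marker shape per probe set and grey lines joining its values within a group. On 2 probe sets of Rps27l and of Rpl7, mutants 2 and 3 lie well below all controls while mutant 1 lies near or above them, and the 2 probe sets of Rps6 differ in opposite directions.

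Of the proteins at the ribosomal stalk, which recruits the elongation factors, Rplp0, Rplp2 and Rpl12 had single-symbol probe sets and none of the 3 passed the test. Rplp0, the base of the stalk, had log2 values of 11.05, 9.40 and 8.40 in mutants 1, 2 and 3, against 9.56, 9.64 and 10.12 in controls, so that mutant 1 was above and mutants 2 and 3 below every control. Its difference of -0.16 (standard error 0.60, adjusted p = 0.900 in limma) therefore averaged opposite deviations, and it was 0.45 without mutant 3. Rplp2, one of the acidic stalk proteins, was at 10.93, 10.39 and 9.14 in mutants, against 11.03, 10.89 and 11.11 in controls (difference -0.86, standard error 0.42, adjusted p = 0.249). Mutant 3 was the low one, and mutant 1 lay among the controls. Rpl12, at the base of the stalk, gave 5.80, 5.90 and 6.80 in mutants, against 6.80, 6.78 and 5.99 in controls, overlapping on a dim probe set. A brighter Rpl12 probe set, set aside for several symbols, gave 10.07, 8.16 and 7.81 in mutants, against 8.99, 8.88 and 9.36 in controls. Another of Rpl12 (mean 11.43) and one of Rplp1 (difference -0.62, adjusted p = 0.458 in limma), also set aside, had the order of mutants 1, 2 and 3.

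The same order recurred around the exit tunnel, through which the nascent chain leaves the large subunit, and on the only member probe set of the 5S particle. Rpl11, which with Rpl5 and the 5S RNA forms the particle that binds Mdm2, was at 10.64, 9.08 and 8.40 in mutants 1, 2 and 3, against 10.35, 10.29 and 10.65 in controls (difference -1.05, standard error 0.51, adjusted p = 0.244 in limma). Of 12 probe sets at the exit tunnel, from 5 genes, none passed the test, their median difference was -0.50, and 11 had the order of mutants 1, 2 and 3. Rpl39, a small protein in the tunnel wall, was at 10.17, 8.87 and 8.10 in mutants, against 9.68, 9.69 and 9.92 in controls (difference -0.72, standard error 0.47, adjusted p = 0.382). Again mutant 1 was above every control and mutants 2 and 3 were below. Rpl39l, its paralog known from testis, lay at 3.92 to 4.18 in mutants and 3.53 to 3.77 in controls, without overlap (difference 0.34, adjusted p = 0.310). Rpl35, at the tunnel's rim, had 6 probe sets, of which the brightest gave 11.43, 11.21 and 10.39 in mutants, against 11.39, 11.47 and 11.33 in controls, while another gave 10.17, 8.59 and 8.05 in mutants, against 9.45, 9.32 and 9.62 in controls. Rpl22, an RNA-binding protein not essential for translation, had its largest difference at 9.72, 8.18 and 7.72 in mutants, against 9.20, 9.25 and 9.45 in controls (difference -0.76, adjusted p = 0.357). Its brightest probe set gave 11.91, 11.72 and 11.66 in mutants, against 12.04, 12.10 and 11.97 in controls, without overlap (difference -0.27, adjusted p = 0.401). Its paralog Rpl22l1 had the same order, at 9.53, 8.03 and 7.91 in mutants, against 9.27, 8.83 and 8.94 in controls (difference -0.52, adjusted p = 0.485).

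Rpl7, a large subunit protein, also spread widely among mutants. Its brightest probe set gave 11.07, 9.87 and 8.97 in mutants 1, 2 and 3, against 10.60, 10.62 and 10.61 in controls (difference -0.64, standard error 0.47, adjusted p = 0.435 in limma). Another gave 9.10, 6.91 and 6.20 in mutants, against 8.33, 8.44 and 8.83 in controls (difference -1.13, standard error 0.66, adjusted p = 0.327). Controls differed by less than 0.5 on each, and mutants by more than 2. Rpl7l1, a paralog with a part in ribosome assembly, differed between its 3 probe sets. The brightest gave 7.67, 7.49 and 7.38 in mutants, against 7.76, 7.46 and 7.68 in controls (difference -0.12, adjusted p = 0.758). A second gave 7.34, 6.50 and 6.70 in mutants, against 7.87, 7.59 and 7.34 in controls (difference -0.75, adjusted p = 0.144), with mutants 2 and 3 below every control, and the dimmest overlapped at a difference of 0.27. Rpl3l, a paralog of Rpl3 known from skeletal and heart muscle, was at 5.93, 6.50 and 6.68 in mutants, against 5.78, 5.80 and 6.18 in controls, overlapping (difference 0.45, adjusted p = 0.313).

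On the small subunit, the mRNA channel, decoding centre and platform were read by 15 probe sets of 8 genes, with none past the test and a median difference of -0.09. Rpsa, also known as the laminin receptor, was higher in every mutant on its bright probe set, at 12.66, 12.99 and 12.78 in mutants, against 12.36, 12.33 and 12.07 in controls (difference 0.56, standard error 0.20, adjusted p = 0.135 in limma). Its dim probe set overlapped (difference 0.15). Rps26, where the mRNA leaves the channel, was at 10.84, 9.31 and 8.37 in mutants, against 10.31, 10.42 and 10.77 in controls (difference -0.99, adjusted p = 0.305). Rps19, the gene most often affected in human Diamond-Blackfan anemia, was at 10.72, 11.10 and 10.36 in mutants, against 10.55, 10.63 and 10.69 in controls (difference 0.11, which became -0.06 after centring each array on its median, adjusted p = 0.819). Of the 20 probe sets of 7 genes of that disease, none passed the test, and 15 showed the order of mutants 1, 2 and 3.

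Rps6, the substrate of the S6 kinases downstream of mTOR, had the smallest adjusted p of the members on a dim probe set. Its log2 value there was 6.18, 6.17 and 6.46 in mutants 1, 2 and 3, against 5.29, 5.50 and 5.39 in controls (difference 0.88, standard error 0.19, adjusted p = 0.0574 in limma). The groups lay apart by more than the spread within either. Its other probe set went the other way, at 5.95, 5.86 and 5.66 in mutants, against 6.92, 6.14 and 6.19 in controls (difference -0.60, standard error 0.26, adjusted p = 0.201). Both were dim, and no other probe set had Rps6 as its single symbol. Probe sets that also name a pseudogene of Rps6 had been set aside. The brightest of those, with means between 11.45 and 12.16, differed by -0.27, -0.67, -0.58 and -0.65. Those of middle level, with means between 8.84 and 9.14, differed by -0.85, -0.91 and -0.77. The dimmest of the set differed by 0.23 and 1.00, and none of the set was called. With the trend and robust options of eBayes, the single-symbol probe set with a difference of 0.88 passed (adjusted p = 0.0491 in limma). That setting called 3.30% of all probe sets. With age as a covariate the same probe set passed too (adjusted p = 0.0469).

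A few members were lower or higher in all mutants, chosen here after their values were seen. Rpl37, a zinc-finger protein of the large subunit, was at 9.56, 9.55 and 8.27 in mutants 1, 2 and 3, against 10.57, 10.48 and 10.38 in controls (difference -1.35, standard error 0.36, adjusted p = 0.0763 in limma). Rpl27a was at 7.70, 6.82 and 6.37 in mutants, against 8.14, 8.11 and 8.05 in controls (difference -1.14, standard error 0.33, adjusted p = 0.0922). On neither of these probe sets did the groups overlap. A dimmer probe set of Rpl27a went the other way, also without overlap (difference 0.33, adjusted p = 0.368 in limma). Of the probe sets set aside because they name Rpl37rt beside Rpl37, the brightest was lower without overlap (-0.95, adjusted p = 0.172 in limma). Another overlapped (-1.11, adjusted p = 0.198), and the dimmest was higher without overlap (0.58, adjusted p = 0.125). Rps9 and Rpl37 were called when the fit was limited to probe sets brighter than the median probe set (adjusted p = 0.0445 and 0.0467), where 13.7% of the probe sets tested were called and 2 of 91 members. In the other direction, Rpl10a, the protein of the L1 stalk, gave 12.14, 12.22 and 12.28 in mutants, against 11.74, 11.62 and 11.62 in controls (difference 0.55, standard error 0.18, adjusted p = 0.115), and the mutants lay close together. Rpl41, the smallest ribosomal protein, was at 7.68, 8.45 and 8.62 on a dim probe set in mutants, against 7.59, 7.49 and 6.07 in controls, where control 3 stood low. With age as a covariate, 3 members were called, where 5.65% of all probe sets were: this probe set of Rpl41 (1.10, adjusted p = 0.0487), Rps6 and, lower in mutants, a dim probe set of Rps24, a Diamond-Blackfan anemia gene in humans (-1.02, adjusted p = 0.0480). Without age in the fit, the brightest probe sets of Rps24 were above 0, by 0.514, 0.509 and 0.505, the second without overlap. The next brightest differed by -0.005, and none of these was called. Another dim probe set of Rps24 stood at 5.87, 9.10 and 5.58 in mutants 1, 2 and 3, against 5.73, 5.82 and 8.43 in controls 1, 2 and 3, high in mutant 2 and control 3 alone. Mutant 2 and control 3 were the highest arrays on 4 members (3.77%) and on 19.6% of all probe sets.

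The brightest genes by single-symbol probe sets varied little among mutants. Rps29, a zinc-binding protein of the small subunit, was at 12.87, 12.85 and 12.58 in mutants, against 12.96, 12.92 and 12.88 in controls (difference -0.15, adjusted p = 0.658 in limma). Rpl13a, also known for its part in the interferon response and as a reference gene, was at 12.85, 12.97 and 12.89 in mutants, against 12.70, 12.67 and 12.46 in controls (difference 0.29, adjusted p = 0.365). Another probe set of Rpl13a, one of lower level, gave 11.36, 10.90 and 10.45 in mutants, against 10.15, 9.91 and 10.19 in controls, higher in all mutants (difference 0.82, standard error 0.26, adjusted p = 0.112). Rpl38, which acts on the translation of Hox mRNAs in mouse embryos, was at 12.76, 12.88 and 12.70 in mutants, against 12.58, 12.58 and 12.52 in controls (difference 0.22, adjusted p = 0.482). By single-symbol probe sets, the dimmest genes besides Rpl39l were Rps16 and Rpl14. Rps16 was at 3.65 to 4.54 in mutants and 3.63 to 4.15 in controls, and Rpl14 at 4.65 to 5.48 in mutants and 4.97 to 5.26 in controls. Both genes were bright on probe sets that also name a pseudogene and were set aside, with means up to 12.85 (Rps16) and 11.68 (Rpl14). What part of these transcripts the probes read was not examined. Rps19bp1, the member that is not part of the ribosome, was lower in each mutant, at 7.10, 7.16 and 7.06 in mutants, against 7.66, 7.50 and 7.70 in controls (difference -0.51, standard error 0.18, adjusted p = 0.133), without the spread among mutants.

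Because mutant 1 lay near or above the controls, the counts were taken again without it. In limma with mutants 2 and 3 against the controls, 14 members were lower and 1 was higher at an adjusted p under 0.05, among 5.68% lower and 2.90% higher of all probe sets. The 14 were probe sets of Rps26, Rpl35, Rpl22, Rpl22l1, Rpl11, Rpl39, Rpl7 (2), Rps9, Rps27l (2), Rpl27a, Rpl27 and Rps20, and the 1 was Rps6. Of the 14, 13 had means between 6.98 and 10.18, the exception being the dimmest member, a probe set of Rps20 (mean 3.51). These 13 were among 26 members in that range, where 1784 of all 10853 probe sets were lower in the same fit. The brightest probe sets of Rps20 differed by 0.17 and 0.24 without mutant 1. Dim ones of Rpl35 and Rpl27a differed by 0.26 and 0.35, while the brightest of Rpl35 differed by -0.60, and none of these was called. Differences without mutant 1 were -2.94 and -2.89 for Rps27l (adjusted p = 0.00941 and 0.00940), -1.98 and -1.92 for Rpl7 (0.0154 and 0.00998) and -1.69 for Rpl11 (0.0199). The median of the members was then -0.26, beside 0.23 for all probe sets. Leaving out each animal was planned, but this fit is set out here for what the values of mutant 1 showed, so it is a description of where the lower members lie and not a comparison of the genotypes.

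Some control probe sets had the order of the members and others did not. Affymetrix arrays read Gapdh and Actb, both expressed in all cells, with separate probe sets at the 3′ end, the middle and the 5′ end. The Gapdh probe set at the 3′ end was at 11.92, 10.45 and 9.84 in mutants 1, 2 and 3, against 11.96, 11.83 and 12.31 in controls, and the middle one at 11.55, 9.64 and 8.96 in mutants, against 10.65, 10.61 and 11.21 in controls. The 5′ one was at 11.46, 11.51 and 11.61 in mutants, against 9.64, 9.81 and 10.01 in controls. Gapdh 3′ minus 5′ was thus 0.45, -1.06 and -1.78 in mutants and 2.31, 2.02 and 2.30 in controls (exact two-sided permutation test, p = 0.1, the smallest that 3 against 3 can give). For Actb the 5′ probe set had the order, at 10.36, 9.08 and 8.48 in mutants, against 9.33, 9.001 and 9.86 in controls, while the 3′ one was at 12.96, 13.02 and 12.97 in mutants, against 13.15, 12.90 and 12.97 in controls. Actb 3′ minus 5′ was therefore lowest in mutant 1 and highest in mutant 3, with 2.60, 3.95 and 4.50 in mutants, against 3.82, 3.90 and 3.11 in controls (difference 0.07, exact two-sided permutation test, p = 0.8). The 18S rRNA probe set at the 3′ end was at 9.26, 10.52 and 10.56 in mutants, against 10.19, 10.08 and 9.61 in controls, overlapping, and the middle and 5′ ones overlapped as well (differences of 0.51 and 0.02). Probe sets that read 1 transcript therefore parted here as they did in Rps27l and Rpl22. Some bright hepatocyte transcripts showed it too, such as Ttr, with 13.36, 12.47 and 11.80 on one probe set in mutants, against 12.99, 13.12 and 13.30 in controls, and 14.07, 13.95 and 13.91 on another in mutants, against 14.00, 14.03 and 14.03 in controls. The part of these measures in the spread of the ribosomal proteins was not tested.

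Markers of liver cell types were read on the same arrays. Of 23 hepatocyte marker probe sets none was called, 18 were below 0 and 13 had the order of mutants 1, 2 and 3. The summed linear level of 11 hepatocyte genes ran between 74299 and 91180 in mutants and between 89373 and 92465 in controls. That of 10 genes of the sinusoidal endothelium ran between 5812 and 9834 in mutants and between 2758 and 4663 in controls, with Stab2 (1.82, adjusted p = 0.0363 in limma) and Stab1 (1.39, adjusted p = 0.0491) higher, and that of 12 genes of Kupffer cells and macrophages between 2823 and 4534 in mutants and between 1415 and 2703 in controls. The sums were also higher on every mutant array for 7 neutrophil genes (587 to 695 in mutants, 412 to 486 in controls), 5 erythroid genes (1564 to 2122 in mutants, 936 to 1249 in controls) and 5 cholangiocyte genes (423 to 551 in mutants, 294 to 362 in controls), while those for lymphocytes and stellate cells overlapped. Of these lists 1 gene was called, the erythroid Hbb-b2, and all 8 cholangiocyte probe sets had differences above 0. No marker was at 0. The part of cell makeup in the ribosomal protein values was not tested.

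Mitochondrial ribosomal proteins, which build the separate ribosome that translates mitochondrial DNA, were set beside them for comparison. Their 156 probe sets, from 76 genes, had a median difference of -0.25, with 2 called higher and 5 lower (4.49%, beside 2.13% of all probe sets), and medians of -0.07, -0.24 and -0.49 in mutants 1, 2 and 3. Here the median of mutant 1 was below 0 as well. The order of the mutants was found on 43.6%, and the median SD was 0.34 over mutants and 0.16 over controls. The 5 were Mrps14, Mrpl49, Mrps30, Mrpl44 and Mrps35, of which Mrps14 differed most, at 6.92, 5.76 and 6.07 in mutants, against 7.83, 8.14 and 7.85 in controls (difference -1.69, standard error 0.31, adjusted p = 0.0462 in limma). Mrpl18 (1.39, adjusted p = 0.0331) and Mrpl52 were higher, the second at 12.56, 12.90 and 12.97 in mutants, against 11.45, 11.64 and 11.38 in controls (difference 1.32, standard error 0.20, adjusted p = 0.0334). A gene called in this group and none in the other does not show that the groups differ, and that difference was not tested.

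**Figure D5:**
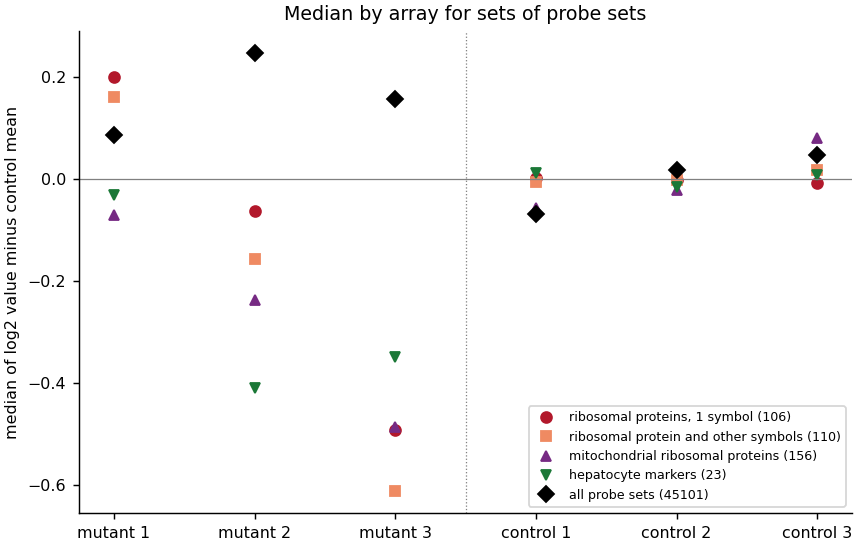
Median over probe sets of the log2 value minus the control mean (vertical axis) on each array for the ribosomal proteins, the probe sets set aside for several symbols, the mitochondrial ribosomal proteins, hepatocyte markers and all probe sets. Cytosolic ribosomal proteins differ among mutants (0.20, -0.06 and -0.49), whereas the median of all probe sets stays above 0 in each mutant.

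The other genes of the pathway were taken from lists written by hand. Of the TOP mRNAs outside the ribosome, such as elongation factors and Tpt1, 0 of 35 probe sets were called in either direction (13 genes, 7 higher and 5 lower at an unadjusted p under 0.05), with a median difference of 0.05 and medians of 0.15, 0.09 and -0.18 in mutants 1, 2 and 3. Fau, a ribosomal protein whose symbol the rule does not take, was at 12.33, 12.45 and 12.21 in mutants, against 12.23, 12.35 and 12.31 in controls. Of 174 probe sets of 84 ribosome biogenesis factors, 4 rose and 1 fell, with a median of -0.01. These are 2.87%, near the 2.13% of all probe sets, so the calls below are given gene by gene and nothing is read from their number. Utp14a, a component of the processome that matures the small subunit, rose on a dim probe set to 6.36, 6.24 and 6.23 in mutants, against 4.71, 5.05 and 5.09 in controls (difference 1.33, standard error 0.20, adjusted p = 0.0331 in limma), and its brighter one was apart in the same direction (0.70, adjusted p = 0.0884). Pwp2, of the same processome, rose too (1.36, adjusted p = 0.0459). Riok1, a kinase of late small subunit assembly, rose on 1 of its 5 probe sets (1.23, adjusted p = 0.0446). Of the others, 1 was higher in all mutants (0.74, adjusted p = 0.0907), 1 was lower in all, at 5.94, 5.34 and 6.68 in mutants, against 6.78, 6.97 and 6.70 in controls (-0.83, adjusted p = 0.173), and 2 overlapped. Ncl, the nucleolar protein nucleolin, was called in opposite directions, at 8.51, 8.18 and 7.84 on one probe set in mutants, against 9.48, 9.43 and 9.65 in controls (difference -1.34, adjusted p = 0.0408), and at 7.09, 7.38 and 7.51 on another in mutants, against 5.97, 6.30 and 5.41 in controls (difference 1.44, adjusted p = 0.0472), and its other 3 overlapped. Of 41 probe sets of RNA polymerase I and its factors, 1 rose (2.44%), the dimmest probe set of the shared subunit Polr2e (1.21, adjusted p = 0.0462), whose brightest one overlapped at -0.10. On the mTOR and S6 kinase axis, 1 of 47 probe sets rose and 2 fell (6.38%). Eif4ebp2, which holds back cap-dependent translation, fell on 2 probe sets (-1.00 and -1.83, adjusted p = 0.0491 and 0.0459), while 1 more was higher in all mutants (0.54, adjusted p = 0.231) and the other 2 overlapped. Deptor, an inhibitor of mTOR, rose on its brightest probe set (1.76, adjusted p = 0.0334) while 3 others differed by -1.45, -1.33 and -1.09 (adjusted p = 0.0706, 0.0526 and 0.154), without overlap, and the remaining 2 overlapped.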

How the data were processed

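The deposited log2 values, 1 per probe set and array, were made by the authors in dChip, where probe-level data were normalized and summarized by a model of the perfect-match probes alone. No source used here gives the dChip version, and the methods name a worm array although the probe sets are annotated to mouse genes. The log2 values ran between 0 and 14.63 and were used as deposited, with no detection calls. Precision is limited by the 6 arrays. All 6 columns matched a sample and 0 were left over. Of 45101 probe sets, 34958 had 1 symbol in the platform annotation, 932 several and 9211 none.

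Groups came from the sample labels, which give no hybridization date or batch. All probe sets were fitted together in limma 3.58.1 (lmFit, eBayes; R 4.3.3), with Benjamini-Hochberg adjustment and a threshold of 0.05. The fit was tested on simulated data. For single array measures, an exact two-sided permutation test over the 20 assignments was used. The alternatives were quantile normalization, median centring, trend and robust eBayes, a replicate block, age as a covariate, bright probe sets alone, averaging every probe set of a gene, and leaving out each mouse. A fit without both mutant 2 and control 3, and one with mutant 3 and its concurrent control 1 as a block, were added once the data had been seen.

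The members, lists and tests were chosen with earlier results of these data known. Genes were named by a rule: any member past the threshold, 24 genes set by role (18 of them measured by a single-symbol probe set), the 3 brightest and the 3 dimmest genes, and called genes of the lists. Rps9, Rpl37, Rpl27a, Rpl10a, Rpl41, Rps26, Rpl35, Rps24, Rpl27, Rps20 and Rpl12 lie outside it or were named after their values were seen. Figures were drawn with matplotlib 3.10.9. Start windows are from RefSeq.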

Additional observations from a re-analysis of the deposited data

Results flagged for a closer look

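The hybridization controls, bacterial and phage transcripts added to every sample at the same amount, lay outside the comparison of ribosomal proteins and were higher on every mutant array than on every control array. The mean log2 value of the BioB probe sets was 10.41, 11.04 and 10.70 in mutants 1, 2 and 3, against 9.13, 8.93 and 8.67 in controls, a difference of 1.81. The difference was 1.66 for BioC, 1.43 for BioDn and 0.59 for CreX (exact two-sided permutation test, p = 0.1 for each, the smallest possible). Their part in the ribosomal protein values was not tested.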

How the results depend on the processing

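Under the main setting 0 members were called in either direction (17 at an unadjusted p under 0.05), and this held under quantile normalization, median centring and the replicate block, which called 747, 319 and 0 of all probe sets. The replicate block left 7954 of 45101 probe sets at an unadjusted p under 0.05. Deviations of same-numbered animals from their group means had correlations of 0.06, -0.50 and -0.56. Deviations within a group of 3 sum to 0, so such correlations depend on each other and cannot settle whether the numbers pair animals. The correlation was 0.45 between mutant 3 and its concurrent control 1, 0.40 between mutant 3 and control 2, and 0.62 between mutant 2 and control 3. With the concurrent pair as a block, added after seeing the data, 0 members and 420 of all probe sets were called. Members called were 1 higher with trend and robust eBayes, 2 higher and 1 lower with age as a covariate, and 2 lower with bright probe sets alone. Leaving out 1 animal gave 0 to 1 higher and 0 to 14 lower, with both upper counts when mutant 1 was left out. Without any other single animal 0 members were called, but so were 0 to 3 of all probe sets, so those counts say nothing about the members. Member genes called lower were 0 with the mean of all probe sets in place of 1. The median difference of the members lay between -0.26 (without mutant 1) and 0.02 (without mutant 3) when 1 animal was left out, and was -0.29 after median centring. Without mutant 2 and control 3, a setting chosen after seeing the data, it was -0.19, and 0 members and 0 of all probe sets were called (10 and 10848 at an unadjusted p under 0.05). Of 444 values of 32 named genes under the alternatives, 415 kept their direction and side of the threshold, 8 came to pass it and 21 changed sign, all of them without passing the threshold. Sign changes were -0.057 (Rps19), -0.13 (Rps27), -0.15 (Rpl14) and -0.025 (Rps20) after median centring, -0.15 (Rps27) and -0.18 (Rpl14) after quantile normalization, 0.024 (Rps27l) and -0.016 (Rpl14) with age, and 0.13 (Rplp0) and -0.048 (Rps19) without mutant 2 and control 3. When 1 animal was left out, values on both sides of 0 were found for Rplp0 (-0.87 to 0.45), Rps19 (-0.081 to 0.29), Rps27 (-0.082 to 0.11), Rps27l (-0.30 to 0.36), Rpl14 (-0.15 to 0.27) and Rpl27 (-0.63 to 0.046). The causes were not tested. No detection calls came with the values, so signal over background limits the dim probe sets to an unknown degree.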
